A study of Mus musculus with 8 samples.

Results

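Levels of 7 genes of the uterine glands were compared between the uterus and the brain of pregnant mice. They were found as the rows of the deposited count table whose symbol was Foxa2, Spink1, Prss28, Prss29, Cxcl15, Wfdc3 or Sult1d1. Each symbol matched 1 row, so 7 of the 19884 genes in the table are described. The animals were untreated wild-type C57BL/6J females, 6 to 10 weeks old, that had been mated with fertile males. Organs were taken on gestation day 4, counted with the day of the vaginal plug as day 1, after blastocysts had been found in the uterine flush. There were 4 libraries of whole brain and 4 of whole uterus, from 4 mice for each organ. Whole organs were used, so a uterus library mixes gland and luminal epithelium, stroma, muscle, vessels and leukocytes.

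Uterine glands are tubes of epithelium that grow from the lumen into the stroma and secrete proteins into the uterine cavity before the embryo attaches. In the mouse the forkhead transcription factor FOXA2 marks the gland epithelium of the adult uterus. It is needed for the glands to form and for the gland cytokine LIF, which mice require for implantation. The other 6 genes are products of gland or uterine epithelium. Prss28 and Prss29 encode secreted trypsin-like serine proteases known as implantation serine proteinases, Spink1 encodes a Kazal-type inhibitor of trypsin, and Wfdc3 belongs to the WAP domain family, which includes protease inhibitors. Cxcl15 encodes a CXC chemokine, and Sult1d1 encodes a cytosolic sulfotransferase of small molecules.

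Library totals ran from 35394603 to 47790178 counts. Levels are CPM, the counts of a gene per 1e6 counts of the library, on library sizes scaled by TMM, a trimmed mean of ratios between libraries. A positive log2 fold change means a higher level in uterus. All 10 epithelial markers, Epcam and Cdh1 among them, were higher in uterus by the edgeR test, as were 8 of 8 stromal and 7 of 7 smooth muscle markers. All 5 neuron markers were higher in brain. Of all genes tested, 43.5% were called higher in uterus and 43.6% in brain. Other marker lists were mixed. Csf1r of the leukocyte markers, Calb1 of the luminal markers and 6 of 7 oviduct and ciliated cell markers were higher in brain. Of 5 choroid plexus markers 4 were higher in brain, and Aqp1 was higher in uterus (251 against 5.53 CPM). Uterus library 2 stood apart in 5 mitochondrially encoded genes: mt-Co3 was 12.6 CPM there against 1690 to 6800 CPM in the other uterus libraries. Uterus library 4 had the highest summed level of the neuron markers, at 8.28 CPM against 4.87 to 5.35 CPM. Ranges of Spink1, Prss28 and Prss29 between uterus libraries, and the calls of the 7 genes, are also given without libraries 2 and 4. For the other genes such ranges are given only in part.

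All 7 genes were higher in uterus than in brain, and in each of them the lowest uterus library stood above the highest brain library. How many of all genes separate in this way was not counted, so the separation is not read as particular to the 7. By the edgeR test, which is another measure, 13989 of the 16074 genes tested differed between the organs. In bulk tissue, fewer cells of a type and less RNA per cell cannot be told apart. By edgeR's quasi-likelihood test at a Benjamini-Hochberg adjusted p under 0.05, 7 of 7 passed, where 43.5% of the 16074 genes tested were called higher in uterus. Against a 2-fold change 7 of 7 passed as well, where 23.5% of the genes tested did. The median fitted log2 fold change of the 7 was 12.72, or 10.25 with the 2 genes that had 0 brain counts set to their bounds, and 0.012 over all genes tested. An exact two-sided permutation test of log2(CPM + 0.5), 4 against 4 libraries, gave p = 0.0286 for each of the 7, the smallest p that this design allows. Any gene whose organs do not overlap reaches this p, so it restates the separation above. With a filter of 1 CPM in 4 libraries Prss28 was not tested, and the other 6 passed. Limma-voom called 4 of 7, without Spink1, Prss28 and Prss29. With only uterus libraries 1 and 3, an alternative added after the data were seen, all 7 remained called.

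**Figure D1:**
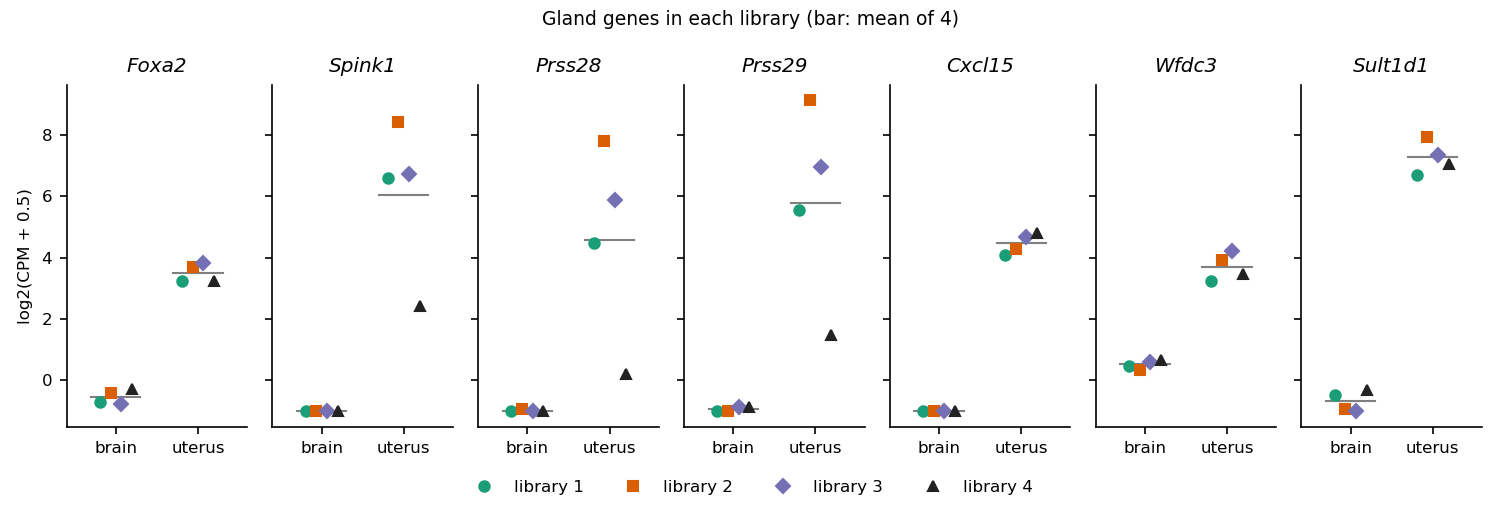
Level of each gene, as log2(CPM + 0.5), in 4 brain and 4 uterus libraries, with a bar at the mean of each organ; symbols mark the library number, and the labels do not say whether equal numbers are the same animal. Foxa2, Cxcl15, Wfdc3 and Sult1d1 stay within a 2.38-fold range in uterus, while Spink1, Prss28 and Prss29 run from library 2 at the top to library 4 at the bottom.

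Foxa2 (ENSMUSG00000037025, GRCm38 chromosome 2, 148042877 to 148046969, minus strand, 4 exon blocks) varied little in uterus beside Spink1, Prss28 and Prss29, though its SD between libraries lay at the 84.1 percentile of genes of like level. It stood at 8.96, 12.3, 13.6 and 8.86 CPM in uterus libraries 1 to 4, and at 0.108, 0.254, 0.0924 and 0.331 CPM in the brain libraries. The highest uterus library was 1.53 times the lowest, and the lowest was 26.7 times the highest brain library. The mean was 10.9 ± 2.40 CPM in uterus against 0.196 ± 0.116 in brain (SD, n = 4), a log2 fold change of 5.76 ± 0.33 (SE, edgeR adjusted p = 5.3e-08). Across all genes of a library, Foxa2 ranked between 9700 and 10806 by CPM in the uterus libraries, in the middle of the 19884 genes listed.

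The 2 protease genes lie next to each other on chromosome 17. Prss28 (ENSMUSG00000024171, 25308646 to 25311876, plus strand, 6 exon blocks) is followed after 6777 nt by Prss29 (ENSMUSG00000034039, 25318654 to 25322684, plus strand, 6 exon blocks), with no annotated gene between them. Prss28 stood at 21.5, 222, 58.7 and 0.653 CPM in uterus libraries 1 to 4, and a single count was found in all 4 brain libraries together. Prss29 stood at 46.4, 559, 123 and 2.28 CPM in the same libraries, and at 4 counts in brain. Both genes were highest in library 2 and lowest in library 4, and the range between these was 341-fold for Prss28 and 245-fold for Prss29. Without library 4 it was 10.4-fold and 12-fold, and without library 2 it was 89.9-fold and 54.0-fold. Between libraries 1 and 3 alone Prss28 differed 2.73-fold and Prss29 2.66-fold. In raw counts, library 2 against library 4 was 9451 against 28 for Prss28 and 23763 against 98 for Prss29. Even the counts in library 4 were above the limit of 3 counts that a count of 0 allows.

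The mean uterus level of Prss28 was 75.8 ± 101 CPM (SD, n = 4), and the ratio of uterus to brain from summed counts was 12754 (95% interval 2289 to 503790). For Prss29 the mean was 183 ± 256 CPM and the ratio 7707 (95% interval 3010 to 28289). These exact intervals cover counting error only. The fitted log2 fold changes were 13.03 ± 2.59 for Prss28 (edgeR adjusted p = 0.00062) and 12.72 ± 2.32 for Prss29 (edgeR adjusted p = 0.00042). Without uterus library 2 they were 11.54 and 11.05, and without brain library 2, which holds its only brain count, Prss28 was at 14.60. With uterus libraries 1 and 3 alone they were 12.12 and 11.63. Limma-voom called neither gene (adjusted p = 0.318 and 0.393).

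The stretches of 250 bases before the start sites of the 2 neighbouring protease genes are shown. They were aligned with gaps allowed, and 67.2% of the 241 positions without a gap were identical. No other pair of promoters was aligned, and a part of this sequence in the levels was not tested. Capitals mark the 2 runs of at least 8 identical aligned bases in the alignment used. Runs depend on where gaps are placed: the letters tgggtcac also stand in both stretches and are not marked. Each marked run is 15 bases long. The second, which begins 30 bases before the start in both genes, holds the letters of a TATA-like element. Sequences are from RefSeq on GRCm38.p6, plus strand, chr17:25308396-25308645 for Prss28 and chr17:25318404-25318653 for Prss29.
Prss28: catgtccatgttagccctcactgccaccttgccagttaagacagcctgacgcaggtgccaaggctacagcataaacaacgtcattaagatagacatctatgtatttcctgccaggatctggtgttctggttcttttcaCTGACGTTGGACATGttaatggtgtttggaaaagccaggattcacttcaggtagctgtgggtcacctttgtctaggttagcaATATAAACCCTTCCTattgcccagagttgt
Prss29: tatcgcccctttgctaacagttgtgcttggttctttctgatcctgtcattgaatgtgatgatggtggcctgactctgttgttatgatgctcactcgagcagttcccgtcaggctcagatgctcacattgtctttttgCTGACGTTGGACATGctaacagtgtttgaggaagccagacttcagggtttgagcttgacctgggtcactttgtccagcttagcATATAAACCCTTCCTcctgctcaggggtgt

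The transcripts of the 2 genes are related but not near-identical. The longest match between an annotated Prss28 transcript and another gene was to Prss29, at 74.0% identity over 508 nt. No transcript of another gene reached 98% identity over 100 nt or more with any of the 7 genes.

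Spink1 (ENSMUSG00000024503, chromosome 18, 43728082 to 43737557, minus strand, 4 exon blocks) had the same library order as the proteases. It stood at 95.8, 339, 104 and 4.90 CPM in uterus libraries 1 to 4, a 69.2-fold range, and had 0 counts in all 4 brain libraries. Library 2 was the highest and library 4 the lowest, with libraries 1 and 3 close together (1.09-fold). The range was 3.53-fold without library 4 and 21.3-fold without library 2. The mean of 136 ± 142 CPM (SD, n = 4) was at least 7521-fold higher than in brain, taking 3 counts over the 4 brain libraries as the limit. The edgeR adjusted p was 0.0013, while limma-voom did not call the gene (adjusted p = 0.236). The fit gave 15.46 on the log2 scale, a value that depends on the prior count, against 14.46 without uterus library 2 and 15.01 with uterus libraries 1 and 3 alone.

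Wfdc3 (ENSMUSG00000076434, chromosome 2, 164731180 to 164745931, minus strand, 6 exon blocks) was the member with the highest level in brain. It stood at 8.99, 14.6, 17.9 and 10.6 CPM in uterus libraries 1 to 4 and at 0.891, 0.761, 1.02 and 1.09 CPM in brain. The organs did not overlap, and the uterus range was 1.99-fold. The mean was 13 ± 4.02 CPM against 0.939 ± 0.144 (SD, n = 4), a log2 fold change of 3.79 ± 0.25 (SE, edgeR adjusted p = 1.6e-07).

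Cxcl15 (ENSMUSG00000029375, chromosome 5, 90794534 to 90803067, plus strand, 4 exon blocks) ran in another order. It stood at 16.6, 18.9, 25.2 and 27.6 CPM in uterus libraries 1 to 4, so library 4, the lowest for Spink1 and both proteases, was the highest for this chemokine. No count was found in any brain library, and the mean of 22.1 ± 5.18 CPM (SD, n = 4) was at least 1220-fold higher than in brain (edgeR adjusted p = 2e-07). A miRNA gene model, Gm24322, overlaps the locus on the opposite strand. None of the other 6 genes overlaps an annotated gene.

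Sult1d1 (ENSMUSG00000029273, chromosome 5, 87554645 to 87569027, minus strand, 9 exon blocks) had the highest mean per kb of exon among the 4 genes that varied less than Spink1, Prss28 and Prss29. It stood at 103, 245, 163 and 132 CPM in uterus libraries 1 to 4 and at 0.216, 0.0231, 0 and 0.307 CPM in brain. Library 2 was the highest, as for Spink1 and the proteases, but the range was 2.38-fold and library 1 was the lowest. Without library 2 the range of Sult1d1 was 1.58-fold. The mean was 161 ± 61.4 CPM against 0.137 ± 0.149 (SD, n = 4), a log2 fold change of 10.21 ± 0.50 (SE, edgeR adjusted p = 1.5e-08), or 11.04 without brain library 4, which holds 13 of its 22 brain counts.

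Levels of different genes were compared per kb of annotated exon. In uterus the mean levels were 186 ± 195 CPM per kb for Spink1, 155 ± 217 for Prss29, 65.4 ± 25.0 for Sult1d1, 62.2 ± 82.6 for Prss28, 10.4 ± 2.43 for Cxcl15, 5.15 ± 1.59 for Wfdc3 and 4.62 ± 1.01 for Foxa2 (SD, n = 4). Of neighbours in this order, only Cxcl15 and Wfdc3 differed by more than the larger of their SDs. The order changed between libraries. In library 2 Prss29 (473 CPM per kb) and Spink1 (465) led, followed by Prss28 (182) and Sult1d1 (99.8). In library 4 Sult1d1 led at 53.7 CPM per kb and Cxcl15 followed at 13, while Prss29 (1.93) and Prss28 (0.536) stood below Foxa2 (3.74).

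The share of a library taken by the 7 genes followed Spink1, Prss28 and Prss29. Summed levels of the 7 were 301, 1410, 506 and 187 CPM in uterus libraries 1 to 4. As a share of all counts they were 0.0327% (Wilson 95% interval 0.0321 to 0.0333), 0.156% (0.155 to 0.158), 0.0564% (0.0556 to 0.0572) and 0.0199% (0.0195 to 0.0204). Of the counts of the 7 genes, Spink1, Prss28 and Prss29 together held 54.3%, 79.4%, 56.6% and 4.19% in the same libraries. Prss29 ranked 159 among all genes by CPM in library 2 and 12771 in library 4.

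The spread between the 4 uterus libraries set these 3 genes apart from the other 4. On the log2(CPM + 0.5) scale the SD was 3.23 for Prss28, 3.22 for Prss29 and 2.54 for Spink1, which ranked 6, 7 and 8 among 13769 genes with a mean of 1 CPM or more in uterus. The median SD of these genes was 0.118, and 91 of them reached 1 or more. The 5 genes above the 3 were the mitochondrially encoded ones, which were low in library 2. The SD was 0.528 for Sult1d1, 0.431 for Wfdc3, 0.337 for Cxcl15 and 0.303 for Foxa2, at ranks of 502, 806, 1427 and 1761. These 4 also lay above the median of all genes, and among genes of like level they stood at percentiles 98.7, 93.7, 92.1 and 84.1. Of 10571 genes with 10 CPM or more, 9 had a highest library over 50 times the lowest: 5 mitochondrially encoded genes, these 3 members and Atp6v0d2, a subunit gene of the vacuolar proton pump.

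**Figure D2:**
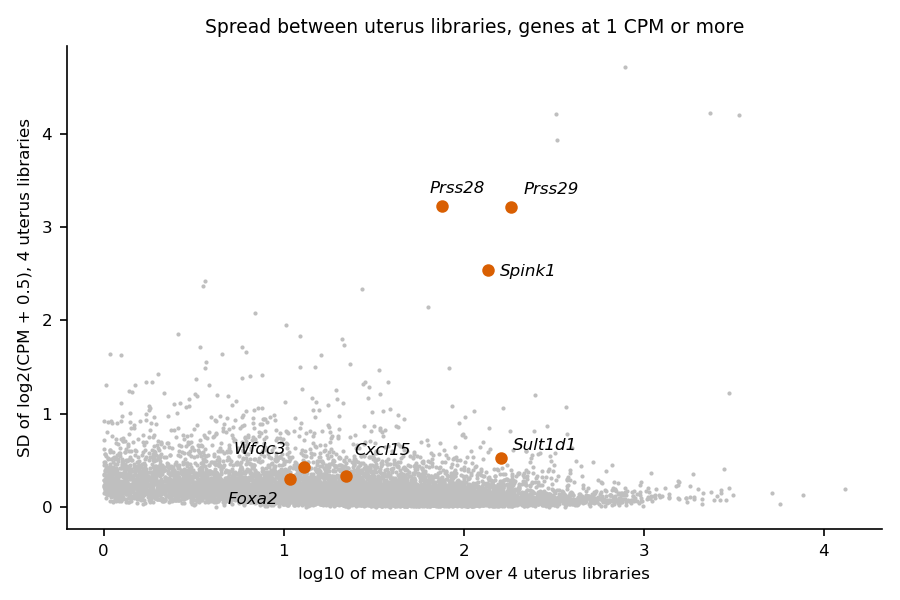
SD of log2(CPM + 0.5) over 4 uterus libraries against the log10 of the mean CPM, for 13769 genes (grey) and the 7 members (orange). Prss28, Prss29 and Spink1 lie at SDs of 2.54 to 3.23, and the other 4 members at 0.303 to 0.528.

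The spread of the 3 genes was smaller without library 4. There the SD was 1.68 for Prss28, 1.80 for Prss29 and 1.01 for Spink1, and without library 2 it was 2.96, 2.84 and 2.44. Without library 2 the SD of Sult1d1 was 0.329. All of these values for the 3 genes lie above 0.874, the 99th percentile over all genes in the 4 libraries.

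Ratios within a library showed which genes kept step. The ratio of Prss29 to Prss28 counts was 2.16 (exact 95% interval 1.99 to 2.35), 2.51 (2.46 to 2.58), 2.10 (2.0 to 2.21) and 3.50 (2.28 to 5.53) in uterus libraries 1 to 4. It varied 1.67-fold, where Prss28 varied 341-fold and Prss29 245-fold. The ratio of Spink1 to Prss29 was 2.06, 0.606, 0.847 and 2.14, a 3.54-fold range. Against Foxa2, Prss28 varied 244-fold, from 18.0 times the level of Foxa2 in library 2 to 0.0737 times in library 4. Prss29 varied 176-fold and Spink1 49.6-fold against Foxa2, where Cxcl15 varied 2.04-fold, Sult1d1 1.73-fold and Wfdc3 1.31-fold. Without library 4 the ranges against Foxa2 were 7.51-fold for Prss28, 8.74-fold for Prss29 and 3.57-fold for Spink1, and without library 2 they were 58.6-fold, 35.2-fold and 19.4-fold. Between libraries 1 and 3 alone they were 1.80-fold, 1.75-fold and 1.39-fold. Cxcl15 varied 1.21-fold against Foxa2 without library 4, and 1.68-fold without library 2.

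Likeness of profiles was measured as the root mean square difference of log2(CPM + 0.5) deviations over the 4 uterus libraries, against all genes with a mean of 1 CPM or more. Small values mean alike profiles, and with 4 libraries the measure is a description. Prss29 was the nearest of 13768 genes to Prss28, at 0.112, and Spink1 was second to both proteases (0.736 and 0.758). The differences are not scaled by spread, and 91 genes had an SD of 1 or more, so these ranks come from few candidates. Prss29 stayed nearest to Prss28 under each of the 8 alternatives tried, whereas without library 4 Spink1 was at rank 40 for Prss28 and 39 for Prss29. Foxa2 was 2.60 from either protease. It was 0.137 from Wfdc3, which ranked 215, in a range where many genes of small spread lie close together.

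Outside the 7, Atp6v0d2 was the nearest gene to Spink1 (0.300), Prss28 (0.921) and Prss29 (0.910), with 18.0, 73.9, 16.0 and 1.00 CPM in uterus libraries 1 to 4. Serpina3n, a serine protease inhibitor gene, had 22.8, 205, 22.1 and 5.08 CPM and lay 1.32 from Prss28, 1.26 from Prss29 and 0.940 from Spink1. Erdr1 lay 0.907 from Spink1 (24.8, 48.5, 10.6 and 2.47 CPM). For the proteases the third gene was 8430408G22Rik, at 1.46 from Prss28 and 1.43 from Prss29 (7.53, 42.0, 12.6 and 2.28 CPM). All of these were highest in library 2 and lowest in library 4, which follows from their being picked by likeness in these libraries. Their levels in brain differed: Serpina3n stood at 36.9 CPM there and Atp6v0d2 at 0.00675.

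The nearest genes to Foxa2 were Gng4 (0.0184), Nlrp1b (0.0235) and Ifitm5 (0.0313), all low in uterus: Gng4 stood at 1.26, 1.90, 2.05 and 1.21 CPM. Those of Wfdc3 were Cd209a (0.0371), a lectin gene of dendritic cells, Dnd1 (0.0571) and Pla2g10 (0.0675), a secreted phospholipase gene at 9.87, 15.7, 17.9 and 10.4 CPM. Those of Sult1d1 were Atf3 (0.0517), a stress-induced transcription factor gene, Pbld2 (0.0691) and Lvrn (0.0705). Those of Cxcl15 were 5730508B09Rik (0.0384), 9130230L23Rik (0.0419) and Kcnip4 (0.0463).

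**Figure D3:**
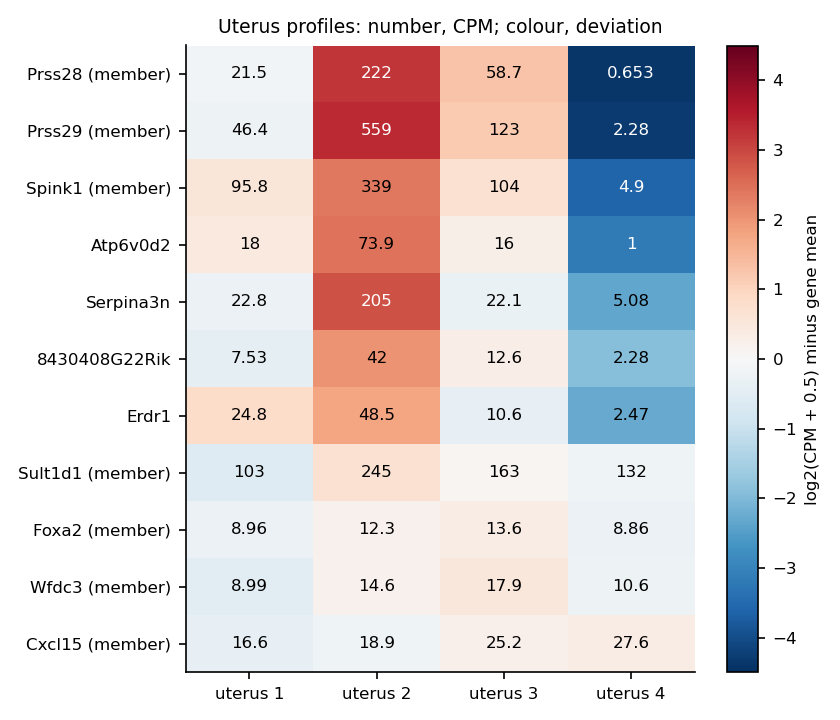
The 7 members and 4 genes named by likeness in the 4 uterus libraries; numbers are CPM and colours the deviation of log2(CPM + 0.5) from the mean of the gene. Prss28, Prss29, Spink1, Atp6v0d2, Serpina3n, 8430408G22Rik and Erdr1 share a high library 2 and a low library 4, and Cxcl15 is highest in library 4.

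Summed markers of the cell types in the organ varied less between uterus libraries than Spink1, Prss28 and Prss29 did, but some varied more than Foxa2 (1.53-fold) and Cxcl15 (1.66-fold). The 10 epithelial markers summed to 837, 884, 906 and 1070 CPM in libraries 1 to 4, a 1.28-fold range with library 4 the highest. Taken singly they varied from 1.17-fold (Epcam) to 2.63-fold (Krt19, 21.7 CPM in library 2 and 57.2 in library 4). The 7 luminal markers summed to 306, 270, 311 and 499 CPM, a 1.85-fold range again highest in library 4. There Calb1, a calcium-binding protein gene, stood at 204 CPM against 36.7 to 55.6, a 5.57-fold range. The other luminal markers varied from 1.09-fold (Muc1) to 2.32-fold (Lpar3). Calb1 also stands on the list of gland products and gland cells read below. Summed stromal markers varied 1.21-fold, smooth muscle 1.21-fold, endothelial 1.12-fold and leukocyte markers 1.08-fold. Single leukocyte markers varied from 1.13-fold (Ncr1) to 3.66-fold (Cd3e). Markers of oviduct and ciliated cells summed to 30.7 to 67.6 CPM, a 2.20-fold range, highest in library 4 through Ovgp1 (12.9, 32.1, 26.0 and 51.5 CPM). The part of these cell mixtures in the levels of the 7 genes was not tested.

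Spink1 is also a gene of the exocrine pancreas, so markers of that tissue were read beside it. The 11 acinar markers summed to 1.16 to 1.48 CPM in uterus and 0.899 to 1.27 CPM in brain, all 11 had means under 1 CPM in uterus, and Cela3b, Amy2a5, Ctrb1 and Clps were at 0 in every uterus library. Of the 3 acinar markers tested, Cpa1 (69 counts in uterus against 0, adjusted p = 7.8e-05) and Cpb1 (0.561 against 0.210 CPM, adjusted p = 0.010) were higher in uterus and Pnlip in brain. Of the 6 adipocyte markers, Adipoq, Cidec, Lep and Cfd were at 0 in uterus. Of the 6 trophoblast and embryo markers, Cdx2 and Pou5f1 were at 0, Nanog stood at 0.0553 CPM and Elf5 at 0.974 CPM. Tfap2c was higher in uterus (2.01 against 0.428 CPM, adjusted p = 0.00024) and Eomes in brain (13.4 against 6.89 CPM, adjusted p = 7.6e-05). The part of such cells in the levels of the 7 genes was not tested.

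**Figure D4:**
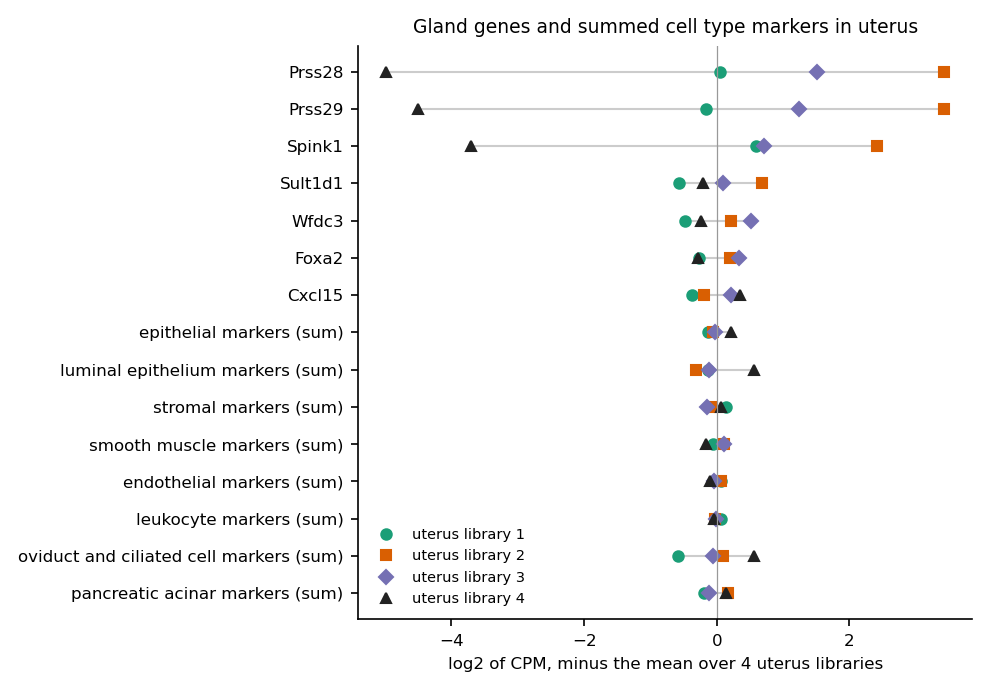
Log2 level in each uterus library, minus the mean over the 4 libraries, for the 7 members and for summed markers of 8 cell types. Prss28, Prss29 and Spink1 reach below -3 in library 4, whereas no marker sum departs by more than 1.

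The families of the members were read from lists of relatives, and the counts and medians include the members themselves. Over all genes tested, 43.5% were called higher in uterus and 43.6% in brain. Of 13 tryptase-like protease genes on the list 12 were in the table and 6 were tested. Of these 5 were higher in uterus, Prss28 and Prss29 among them, and Prss30 did not pass (0.537 against 0.447 CPM). Limma-voom called 3, and with the filter of 1 CPM in 4 libraries 2 were called. After the 2 members the largest change was that of the mast cell tryptase gene Tpsb2, at 1.72 ± 1.67 CPM in uterus (4.40 ± 0.82, edgeR adjusted p = 0.00051). Neighbours of Prss28 and Prss29 on chromosome 17 were low in uterus: Prss34 stood at 0.0665 CPM, Tpsab1 at 0.110 and Tpsg1 at 0.0634. Of 12 Kazal inhibitor genes 8 were in the table and 3 were tested. Spink1 was higher in uterus, while Spink10 (2.45 against 0.122 CPM) and Spink8 (2.24 against 1.02 CPM) were higher in brain by the same test. Spink8 lost its call with library-size or upper-quartile scaling (adjusted p = 0.0513 and 0.0519), and without brain library 1 (0.0541) or 3 (0.0505). With no filter on low counts 3 Kazal genes were called higher in uterus.

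Of 18 WAP domain genes 8 were tested. Of these 7 were higher in uterus, Wfdc3 among them, and 1, Wfdc18, in brain. The median log2 fold change was 5.56, or 4.63 with 2 genes at their bounds. Wfdc18 (0.521 against 0.258 CPM, adjusted p = 0.041) lost its call with library-size or upper-quartile scaling (adjusted p = 0.102 and 0.104), with no filter (0.0553), with DESeq2 (0.0518) and without any 1 library except uterus library 4 (0.0541 to 0.106). Wfdc2 had a mean of 145 ± 26.3 CPM in uterus and 0.883 ± 0.252 in brain (7.34 ± 0.20, edgeR adjusted p = 2.1e-10) and Wfdc1 of 102 ± 13.1 CPM and 7.80 ± 0.328. Wfdc15b (4.38 against 0.0176 CPM) and Wfdc13 (1.09 CPM against 0 counts) were low. Among 12 sulfotransferase genes 7 were tested, of which 5 were higher in uterus, Sult1d1 among them. It was 3 at a threshold of 0.01 and 3 with the filter of 1 CPM in 4 libraries. Sult4a1, a neuronal member, had a mean of 371 ± 24.8 CPM in brain and 1.55 ± 0.748 in uterus (-7.90 ± 0.25, edgeR adjusted p = 5.8e-10), and Sult2b1 of 8.56 ± 1.09 and 0.550 ± 0.122 (-3.96 ± 0.19). Of 7 chemokine genes of the ELR type and their platelet relatives 5 were tested and 3 were higher in uterus, Cxcl15, Cxcl5 and Pf4, the platelet factor gene (4.97 ± 0.242 against 0.933 ± 0.107 CPM). Cxcl5 (0.886 against 0.521 CPM) lost its call with DESeq2 (adjusted p = 0.0614) and without brain library 2, 3 or 4 or uterus library 2 or 4 (0.0729 to 0.095), and with uterus libraries 1 and 3 alone it was at 0.44 (adjusted p = 0.303). With the members included, the median over these 5 was 0.80 and over the 6 protease genes 4.39. It was 1.38 over the 7 sulfotransferase genes and -1.13 over the 3 Kazal genes, where all genes tested gave 0.012.

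**Figure D5:**
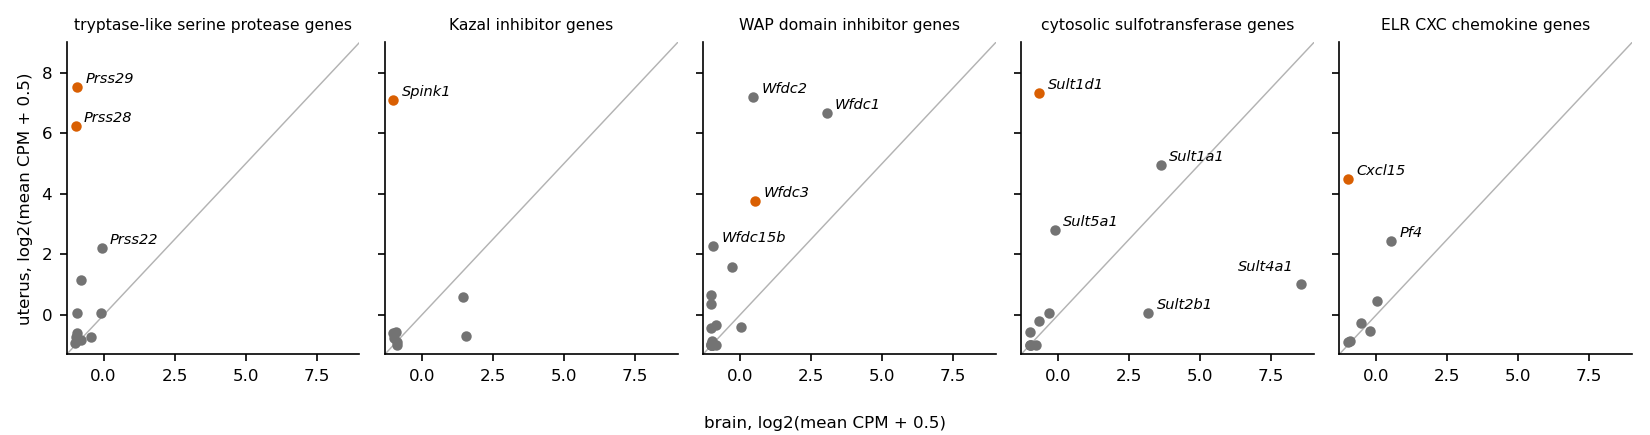
Mean level in uterus against mean level in brain, both as log2(mean CPM + 0.5), for 5 gene families; the line marks equal levels and members are orange. Prss28, Prss29, Spink1, Sult1d1 and Cxcl15 have the highest uterus CPM in their panels, while Wfdc1 and Wfdc2 lie above Wfdc3; CPM is not scaled to gene length.

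Of 10 tested genes of gland products and gland cells, 5 were higher in uterus, 4 in brain and Sox9 did not pass (21.2 against 28.9 CPM). Over all genes tested 43.5% were higher in uterus and 43.6% in brain, so these counts are near the background. With uterus libraries 1 and 3 alone Sox9 was called higher in brain (-1.67). The median log2 fold change was 1.37. Gpx2, a glutathione peroxidase gene, stood at 131 ± 22.5 CPM in uterus (9.14 ± 0.20, edgeR adjusted p = 5e-11) and the mucin gene Muc16 at 5.57 ± 1.20 (7.15 ± 0.39). Ttr, the transthyretin gene and a main product of the choroid plexus, was 791 ± 119 CPM in brain against 10.3 ± 5.65 in uterus (-6.27 ± 0.41). Aldh1a1, a retinaldehyde dehydrogenase gene, and Calb1 were also higher in brain, at 122 against 8.84 CPM and 308 against 86.7 CPM. Foxa1, the nearest relative of Foxa2, had 0 counts in all 4 uterus libraries, against 0.446 ± 0.162 CPM in brain, and Foxa3 had 14 counts in uterus and 0 in brain.

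Lif, the gland cytokine that depends on FOXA2, stood at 33.6, 39.9, 53.2 and 33.4 CPM in uterus libraries 1 to 4. Its highest library was library 3 and its range 1.59-fold, close to that of Foxa2 (1.53-fold) and far from those of the proteases. Prom1, an epithelial surface gene, stood at 126, 350, 220 and 191 CPM, with the same order of libraries as Sult1d1. Other genes of gland products and gland cells with counts in every uterus library varied from 1.42-fold (Pax8) to 5.57-fold (Calb1). Sox9 varied 5.37-fold, at 7.1, 38.1, 10.8 and 28.9 CPM. Ttr varied 4.34-fold, at 9.49, 9.71, 17.8 and 4.1 CPM.

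Of 20 genes of gland development, 15 were higher in uterus, Wnt4 and Fgf10 were higher in brain and 3 did not pass. Their median log2 fold change was 1.69. Of all genes tested, 43.5% were higher in uterus. Hoxa10 and Hoxa11, which pattern the reproductive tract, had means of 364 ± 33.4 and 175 ± 14.5 CPM in uterus and of 0.0234 and 0.0292 CPM in brain, and Wnt11 at 38.7 ± 4.95 against 0.677 (5.83 ± 0.16). Wnt4 was 15.9 ± 2.37 CPM in brain and 11.5 ± 2.46 in uterus (-0.47 ± 0.17, edgeR adjusted p = 0.025), and Fgf10 10.8 ± 1.5 and 5.26 ± 0.660 (-1.04 ± 0.14). Wnt4 lost its call with library-size (-0.20, adjusted p = 0.293) or upper-quartile scaling (-0.21, adjusted p = 0.269), and when brain library 3 (0.0652), brain library 4 (0.0698) or uterus library 1 (0.0554) was left out. With uterus libraries 1 and 3 alone it was at -0.30 (adjusted p = 0.0868). The 10 genes of hormone receptors and LIF signalling were all higher in uterus (median 2.71). Esr1, the oestrogen receptor alpha gene, stood at 307 to 375 CPM over the uterus libraries, a narrow range beside the proteases. Ihh, the hedgehog ligand of the epithelium, stood at 55.2 to 89.8 CPM and Areg, an EGF receptor ligand gene, at 3.08 to 13.3 CPM, lowest in library 4.

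Promoter sequence was at hand for 6 of the 7 genes, with 8 windows of 250 bases before to 50 after a RefSeq start. Spink1 had none. They were searched on both strands for the forkhead letters TGTTTAC and TATTTAC, for the palindrome of the progesterone receptor (GNACA and TGTNC with 3 bases between) and for that of the oestrogen receptor (GGTCA and TGACC with 3 bases between). The forkhead letters were found in Cxcl15 and Sult1d1, and in 6.54% of all 32851 promoter windows. The receptor palindromes were found in none of the 8 windows, and in 0.475% and 0.070% of all windows. In Cxcl15 the match begins 238 bases before the start, and in Sult1d1, as GTAAACA, at base 33 after it. The 250 bases before the start of Cxcl15 (GRCm38.p6, plus strand, chr5:90794284-90794533, from RefSeq) are shown with the match in capitals. Such a match is a description of the letters and shows no binding.
Cxcl15: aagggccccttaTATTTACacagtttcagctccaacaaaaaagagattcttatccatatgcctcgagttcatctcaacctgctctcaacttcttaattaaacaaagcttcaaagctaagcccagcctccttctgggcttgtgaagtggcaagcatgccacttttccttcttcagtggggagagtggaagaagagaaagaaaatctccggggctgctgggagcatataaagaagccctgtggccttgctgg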

How the data were processed

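RNA was sequenced from 4 whole brains and 4 whole uteri. The authors deposited raw counts per gene, in whole numbers and not normalized. Per the labels, libraries were made with a stranded kit that depletes ribosomal RNA. The submitters' processing notes name FastQC, HISAT2 2.0.3, featureCounts and edgeR on GRCm38.p5. For the gene annotation, strand setting and multi-mapped reads, settings are not given in sources used here. GENCODE M21 held 19774 of the identifiers and gave coordinates and exon lengths.

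Genes were filtered with filterByExpr by organ, and 16074 were tested with the quasi-likelihood F test of edgeR 4.0.16 in R 4.3.3 (TMM factors 0.907 to 1.11), two-sided, with Benjamini-Hochberg adjustment over all genes, and with glmTreat against a 2-fold change. An SE was derived from the F statistic and the log2 fold change without a prior, and none is given for a gene with 0 counts in an organ. A count of 0 was taken to allow 3 counts, which is 0.0628 to 0.0848 CPM in a single library, and intervals cover counting error only. The scripts were first tested on simulated data. Alternatives were other scalings and filters, limma-voom 3.58.1, DESeq2 1.42.0, a block for replicate number, a threshold of 0.01, a prior of 2 and leaving out each library. Fits with uterus libraries 1 and 3 only, and ranges without uterus libraries 2 or 4, were chosen after seeing the data. Copies were searched with BLAST+ and promoters aligned globally.

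The members, lists and tests were chosen with earlier results of these data known. Named beside the members are the 3 genes nearest to each, and from each list up to 3 called genes of largest change (mean of 1 CPM or more in the higher organ), plus called genes with a mean of at least 10 CPM whose sign opposed the median of their list. Genes outside this rule, such as those that did not pass, Wfdc1, Lif, Prom1 and the neighbours of Prss28, were chosen after their values were seen. Whether equal numbers in brain and uterus mean the same animal is not stated in the labels, so libraries were not paired. Deviations of same-numbered libraries correlated at -0.124, -0.0448, 0.125 and 0.0985, where wrong partners gave -0.138 to 0.194. Such values between unlike organs cannot show whether the animals were the same.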

Additional observations from a re-analysis of the deposited data

Results flagged for a closer look

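Of 58 groups of 4 libraries examined, 4 held a library far from the other 3, where chance gives about 1 in 20. Prss28 had its single brain count in library 2, at 0.0231 CPM, and the chance rate does not hold for a group with 1 count in all. The list of other gland products summed to 1090 CPM in brain library 2, below the other brain libraries. The genes of hormone receptors and LIF signalling summed to 2260 CPM in uterus library 1, against 2590 to 2610 CPM in the others. The neuron markers summed to 8.28 CPM in uterus library 4. The 3 genes of wide spread, Spink1, Prss28 and Prss29, were not among the 4 in uterus, though their SDs there ranked 8, 6 and 7 of 13769 genes.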

How the results depend on the processing

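All 7 genes were called higher in uterus, and all 7 by more than 2-fold, under the other scalings, with no filter, with DESeq2, at a threshold of 0.01 and without each library in turn. With a filter of 1 CPM in 4 libraries 6 were, since Prss28 was not tested there. Limma-voom called 4 of 7 in both tests and missed Spink1, Prss28 and Prss29 (against 2-fold, adjusted p = 0.427, 0.572 and 0.70). The cause was not tested. Upper-quartile and library-size scaling moved the median of all genes by 0.26 on the log2 scale. With a replicate block 13846 genes differed, against 13989 without it, and no call of the 7 changed, while Cxcl5 lost its call (adjusted p = 0.0833). Mean uterus levels of the 7 moved by less than their SD under RLE and library-size scaling. Ranks of likeness for Foxa2 and Wfdc3 were loose: Wfdc3 ranked between 103 and 826 over the alternatives. Depth limits statements on brain, where Prss28 and Prss29 rest on 1 and 4 counts.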
